A study of Homo sapiens with 8 samples.

Results

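The cytosolic HSP70 and HSP110 family was taken here as 9 genes, HSPA1A, HSPA1B, HSPA6, HSPA8, HSPA2, HSPA14, HSPH1, HSPA4 and HSPA4L. They were chosen by symbol, as the rows of the deposited gene tables that carry their Ensembl IDs. All 9 were among the 36715 rows of the count table and among the 14850 genes that had enough reads to be tested. The study treated MDA-MB-231 cells, a human line of triple-negative breast cancer, and sequenced their RNA. The groups were EMD37 at 0.5 µM for 12 h, DMSO vehicle for 12 h, EMD37 at 0.5 µM for 24 h and DMSO vehicle for 24 h, with 2 libraries each, lettered A and B. The series title names stress of the endoplasmic reticulum (ER) as its subject, and the comparisons asked what EMD37 did at each time. All groups were 1 cell line in the same medium. The labels did not say whether the lettered libraries were separate cultures, so each p-value speaks only for the spread among the libraries at hand.

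HSP70 proteins hold exposed hydrophobic stretches of unfolded proteins in a cycle driven by ATP. J-domain proteins bring them clients and stimulate ATP hydrolysis, and nucleotide exchange factors, among them the HSP110 proteins, release ADP so that the client is let go. Cells make constitutive forms at all times and add stress-inducible forms when cytosolic proteins unfold, mostly through the heat shock transcription factor HSF1, whereas the ER has an HSP70 of its own, HSPA5.

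Counted reads per library ran from 8.99 M to 11.44 M (M for mega), and replicates correlated with r of 0.9881 to 0.9916 over the tested genes, the lowest being the vehicle 24 h pair. Mesenchymal and basal-like markers of this line were high, with VIM at 1280 to 1740 CPM (counts per M reads) and CD44 at 899 to 1270 CPM. ESR1 was at 0.463 to 2.49 CPM, PGR at 2.01 to 3.98 and ERBB2 at 2.85 to 5.18. Of the same list of luminal and receptor genes, KRT8 at 115 to 197 CPM and KRT18 at 258 to 336 CPM were well expressed, and EPCAM, CDH1 and GATA3 were at most 2.32 CPM. Of the 4 leukocyte and 4 fibroblast markers checked, none exceeded 3.48 CPM. All levels below are CPM on the TMM-normalised size of each library, and all differences are log2 fold changes with standard errors. Calls used the quasi-likelihood test of edgeR, adjusted by Benjamini-Hochberg over all 14850 genes, at an adjusted p below 0.05, written as edgeR adjusted p.

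Because the inducible members are classical targets of HSF1, their promoters were read for paired GAA units, the building block of the heat shock element. RefSeq windows of 300 bases on GRCh38.p14, from 250 before to 50 after each annotated start, were available for 8 of the 9 members and searched on both strands for GAANNTTC and TTCNNGAA. Each of these motifs is its own reverse complement. In the sequences below, given 5′ to 3′ on the gene's strand, capitals mark the matches. Those of HSPA1A, HSPA1B, HSPA6 and HSPH1 end before the annotated gene begins. The first 3 belong to the members with the largest changes.
HSPA1A, chr6:31815293-31815463, plus strand: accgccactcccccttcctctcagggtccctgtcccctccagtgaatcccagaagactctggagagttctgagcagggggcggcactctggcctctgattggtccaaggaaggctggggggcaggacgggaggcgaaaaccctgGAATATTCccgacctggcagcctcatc
HSPA1B, chr6:31827488-31827734, plus strand: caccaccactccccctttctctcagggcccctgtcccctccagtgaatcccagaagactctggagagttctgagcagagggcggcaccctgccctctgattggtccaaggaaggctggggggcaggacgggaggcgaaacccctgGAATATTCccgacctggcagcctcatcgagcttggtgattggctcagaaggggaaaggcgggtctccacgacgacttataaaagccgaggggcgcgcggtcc
HSPA6, chr1:161524290-161524539, plus strand: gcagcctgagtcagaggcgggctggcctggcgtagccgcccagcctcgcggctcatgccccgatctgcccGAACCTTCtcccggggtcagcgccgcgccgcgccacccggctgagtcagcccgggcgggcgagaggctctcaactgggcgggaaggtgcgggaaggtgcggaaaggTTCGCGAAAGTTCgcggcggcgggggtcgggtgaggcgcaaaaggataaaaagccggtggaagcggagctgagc
The constitutive HSPA8 is shown for contrast by the upstream end of its window and by a nearer site of 13 bases. Both lie before its RefSeq start but inside the longer annotated span of the gene given below.
HSPA8, chr11:123062353-123062386, minus strand: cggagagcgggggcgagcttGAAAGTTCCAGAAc
HSPA8 nearer site, chr11:123062179-123062191, minus strand: TTCTGGAAGGTTC
HSPH1 is shown as a member that changed and holds no match in its window.
HSPH1, chr13:31162389-31162638, minus strand: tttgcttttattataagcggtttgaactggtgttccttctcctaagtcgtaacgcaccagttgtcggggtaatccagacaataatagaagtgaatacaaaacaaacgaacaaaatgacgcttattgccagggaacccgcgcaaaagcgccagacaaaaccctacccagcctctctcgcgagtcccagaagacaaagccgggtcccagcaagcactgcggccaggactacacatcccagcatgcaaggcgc
HSPA1A and HSPA1B held the same 8 letters, GAATATTC, starting 106 and 105 bases before their starts, and the 2 windows were identical in 277 of 301 aligned columns (92.0%). HSPA6 held a run of 3 units, TTCGCGAAAGTTC, 74 bases before its start and a separate GAACCTTC at 180. HSPA8 held runs of 3 units at 230 and at 55 bases, so this arrangement was found in the constitutive gene as well as in HSPA6. HSPA4L had a match in 1 of its 3 windows, TTCTCGAA, while HSPA4 and HSPA2 had none, which makes 5 of 8 members with a match. Over all 35116 windows, 6.77% held GAANNTTC and 7.74% held TTCNNGAA. The runs of 3 were rarer, with GAANNTTC extended by NNGAA in 0.259% of windows and TTCNNGAA extended by NNTTC in 0.268%. Both extended forms overlap the shorter motifs, and each is the reverse complement of the other. A match describes these letters and no binding was measured.

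EMD37 raised the stress-inducible HSP70 genes by 10.0-fold or more at both times, raised the exchange factor HSPH1 by less, and at 24 h also raised HSPA8, HSPA4L and HSPA4. At 12 h 4 of the 9 members were higher and 0 lower, where 5.27% of all tested genes were higher and 3.43% lower. At 24 h 7 members were higher and 0 lower, where 19.6% of all tested genes were higher and 21.1% lower. The median difference over the 9 members was 0.29 at 12 h and 0.61 at 24 h, beside -0.01 and -0.03 over all tested genes. Of the members not called, 0 at 12 h and 1 at 24 h were lower at an unadjusted p below 0.05, and DESeq2 called 0 members lower at either time. These are bulk libraries, in which fewer cells and less RNA per cell cannot be told apart.

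**Figure D1:**
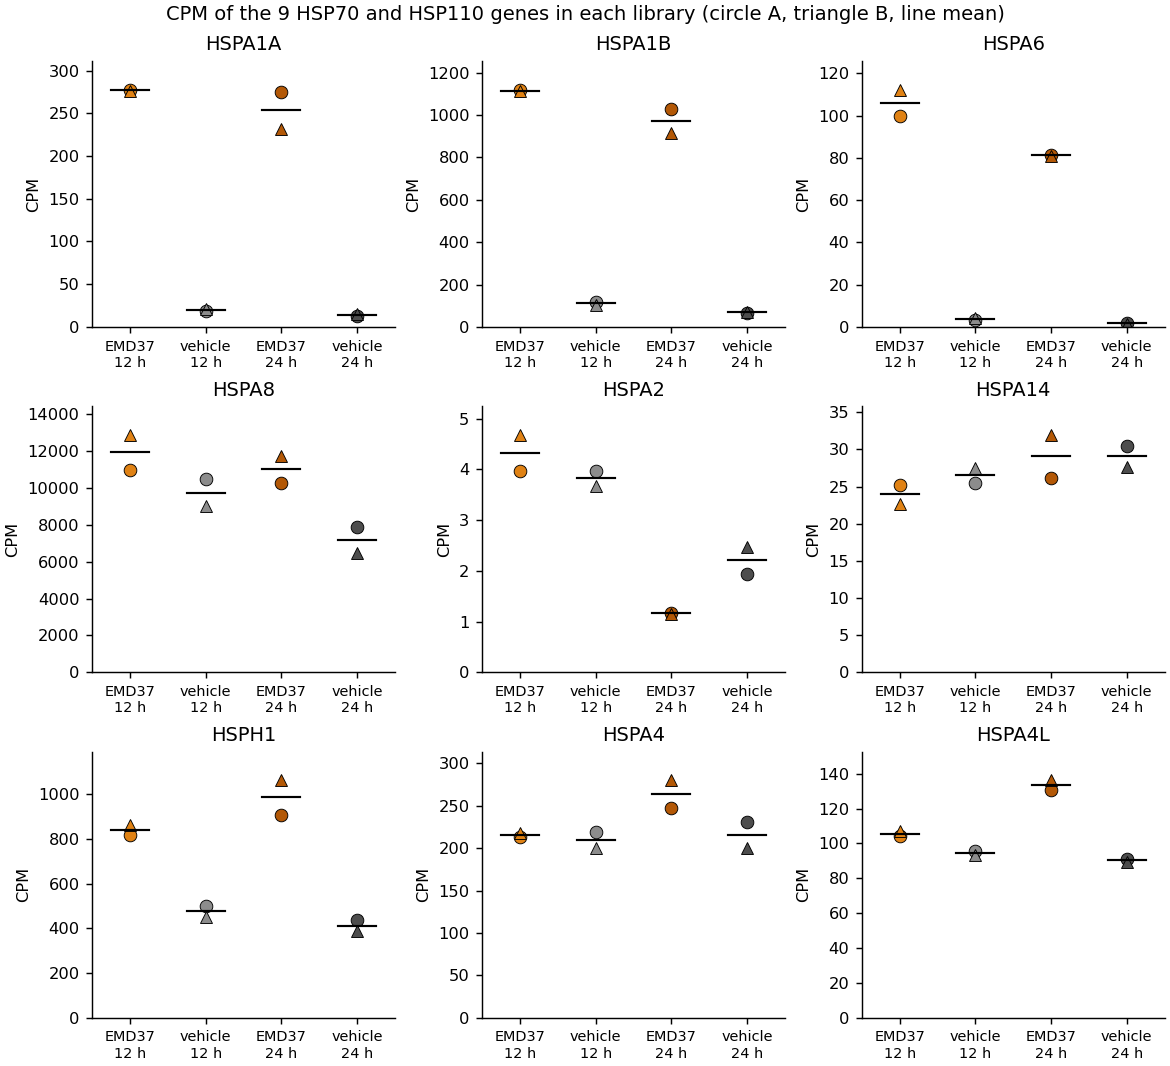
Level of each of the 9 members in CPM, 1 panel per gene, in EMD37 and vehicle libraries at 12 h and 24 h (circle, library A; triangle, library B; line, mean of the 2). HSPA1A, HSPA1B, HSPA6 and HSPH1 are above vehicle in every EMD37 library, while the HSPA14 groups lie within 22.69 to 31.95 CPM.

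HSPA6 (ENSG00000173110, chr1:161524540-161526910, plus strand, hg38) encodes an HSP70 that human cells make almost solely under stress. It had 1085 and 1129 reads in EMD37 libraries at 12 h, against 32 and 48 in vehicle libraries at 12 h. At 24 h it had 771 and 839 reads with EMD37 and 22 and 15 with vehicle. In CPM that is 99.98 and 112.4 against 3.25 and 4.10 at 12 h, and 81.41 and 80.99 against 2.04 and 1.62 at 24 h. Every EMD37 library lay far above every vehicle library. The rise was 4.83 ± 0.14 at 12 h (28.5-fold, edgeR adjusted p = 4.01e-13) and 5.45 ± 0.16 at 24 h (43.8-fold, edgeR adjusted p = 4.45e-13). Of the 50-base stretches of its exons 45.5% also occur in other genes, chiefly the pseudogene HSPA7, whose own row had 0 to 5 reads per library.

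HSPA1A (ENSG00000204389, chr6:31815464-31817946, plus strand) and HSPA1B (ENSG00000204388, chr6:31827735-31830255, plus strand) are neighbouring genes for the major stress-inducible HSP70, and their proteins are nearly the same. HSPA1B had 1120.6 and 1111.6 CPM with EMD37 and 118.7 and 104.5 CPM with vehicle at 12 h. The 24 h levels were 1029.3 and 915.4 CPM with EMD37 and 65.79 and 70.88 CPM with vehicle. It was the second most abundant member per base of exon in EMD37 cells at both times. HSPA1A had 277.7 and 276.5 CPM with EMD37 and 19.00 and 21.29 CPM with vehicle at 12 h. By 24 h it had 275.2 and 231.7 CPM with EMD37 and 12.68 and 14.76 CPM with vehicle. For both genes the EMD37 and vehicle libraries were far apart, and the EMD37 libraries differed little between times.

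HSPA1A rose by 3.78 ± 0.11 at 12 h (13.7-fold, edgeR adjusted p = 3.36e-13) and by 4.21 ± 0.11 at 24 h (18.5-fold, edgeR adjusted p = 1.32e-13). HSPA1B rose by 3.32 ± 0.09 at 12 h (10.0-fold, edgeR adjusted p = 3.36e-13) and by 3.83 ± 0.10 at 24 h (14.2-fold, edgeR adjusted p = 1.15e-13). The division of reads between these 2 genes is uncertain. Of the 50-base stretches of HSPA1A exons 71.3% also occur in other genes, chiefly HSPA1B, and of those of HSPA1B 73.5%. HSPA1B is also overlapped over 36.5% of its exon length by AL671762.1, and reads from the 2 cannot be told apart without strand. With the reads of HSPA1A and HSPA1B summed, the rise was 3.40 ± 0.09 at 12 h and 3.90 ± 0.10 at 24 h (edgeR adjusted p = 2.78e-13 and 7.97e-14). HSPA1B had 3.74 to 4.03 times the reads of HSPA1A in the 4 EMD37 libraries and 4.80 to 6.25 times in the 4 vehicle libraries, a difference that was not tested.

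HSPA8 (ENSG00000109971, chr11:123057489-123063230, minus strand) encodes HSC70, the constitutive HSP70 that also strips clathrin from vesicles. It was by far the most abundant member in every library. At 12 h it had 10973 and 12874 CPM with EMD37 and 10464 and 9030 CPM with vehicle. The 24 h libraries had 10253 and 11755 CPM with EMD37 and 7884 and 6496 CPM with vehicle. The EMD37 and vehicle libraries did not overlap at either time, but at 12 h the nearest of them were close. The rise of 0.61 ± 0.11 at 24 h passed the test (1.53-fold, edgeR adjusted p = 0.000435). The difference of 0.29 at 12 h did not (95% interval 0.05 to 0.53, edgeR adjusted p = 0.139), although it passed when either vehicle library of 24 h was left out (edgeR adjusted p = 0.015 and 0.0151) and with no filter on low counts (edgeR adjusted p = 0.00435). The 11 rows of HSPA8 pseudogenes together held at most 0.156% of the HSPA8 reads of a library.

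HSPA2 (ENSG00000126803, chr14:64535905-64546173, plus strand) encodes a testis-enriched HSP70 that male mice need to form sperm. Per base of exon it was the least abundant member in all 4 groups. It had 43 and 47 reads in EMD37 libraries and 39 and 43 in vehicle libraries at 12 h. At 24 h the levels were 11 and 12 reads with EMD37 and 21 and 23 with vehicle. The 24 h libraries did not overlap, yet the difference of -0.91 was just short of the threshold (95% interval -1.67 to -0.16, edgeR adjusted p = 0.0512). The 12 h difference was 0.18 (95% interval -0.36 to 0.71, edgeR adjusted p = 0.744).

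HSPA14 (ENSG00000187522, chr10:14838164-14871741, plus strand) encodes the HSP70 of the ribosome-associated complex, which meets nascent chains. It had 25.25 and 22.69 CPM with EMD37 and 25.51 and 27.54 CPM with vehicle at 12 h. At 24 h it had 26.19 and 31.95 CPM with EMD37 and 30.44 and 27.68 CPM with vehicle. The groups overlapped at 24 h, while at 12 h they did not overlap but lay close together. The differences were -0.15 at 12 h (95% interval -0.43 to 0.14, edgeR adjusted p = 0.576) and 0.001 at 24 h (95% interval -0.28 to 0.28, edgeR adjusted p = 0.996). Other annotated loci overlap 17.4% of its exon length.

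The HSP110 proteins resemble HSP70 but act mainly as exchange factors, and with HSP70 and J-domain proteins they take apart protein aggregates. HSPH1 (ENSG00000120694, chr13:31134974-31162388, minus strand), the heat-inducible one, had 815.5 and 862.0 CPM with EMD37 and 499.4 and 451.2 CPM with vehicle at 12 h. The 24 h levels were 908.4 and 1061.6 CPM with EMD37 and 435.7 and 387.4 CPM with vehicle. All 4 EMD37 libraries stood above all 4 vehicle libraries. It rose by 0.82 ± 0.09 at 12 h (1.77-fold, edgeR adjusted p = 1.11e-05) and by 1.26 ± 0.09 at 24 h (2.39-fold, edgeR adjusted p = 1.83e-08). None of its 50-base stretches occurs in another gene, so shared reads do not enter this value.

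HSPA4L (ENSG00000164070, chr4:127781821-127840733, plus strand) had 104.3 and 106.9 CPM with EMD37 and 95.73 and 93.64 CPM with vehicle at 12 h. By 24 h it had 130.9 and 136.2 CPM with EMD37 and 91.05 and 89.62 CPM with vehicle. The groups did not overlap at either time and lay close together at 12 h. It rose by 0.56 ± 0.08 at 24 h (1.48-fold, edgeR adjusted p = 1.73e-05), whereas the 12 h difference of 0.16 did not pass (95% interval -0.003 to 0.32, edgeR adjusted p = 0.234). HSPA4 (ENSG00000170606, chr5:133051962-133106449, plus strand), a widely expressed HSP110, had 213.2 and 217.9 CPM with EMD37 and 218.4 and 200.4 CPM with vehicle at 12 h. The 24 h libraries had 247.6 and 279.9 CPM with EMD37 and 231.0 and 199.7 CPM with vehicle. The groups overlapped at 12 h only. HSPA4 rose by 0.29 ± 0.09 at 24 h (1.22-fold, edgeR adjusted p = 0.0135), and at 12 h the difference was 0.04 (95% interval -0.14 to 0.23, edgeR adjusted p = 0.835). The 24 h rise of HSPA4 no longer passed with the 4 libraries of 24 h alone (0.295, edgeR adjusted p = 0.0501). It was also lost without EMD37 library B (0.20) or without vehicle library B (0.19).

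**Figure D2:**
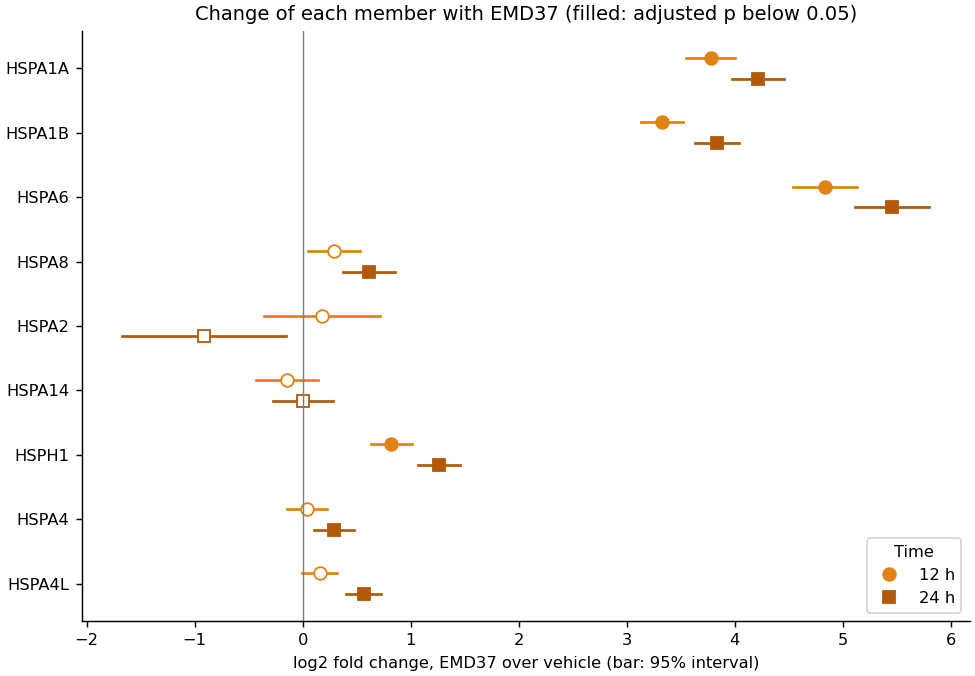
Log2 fold change of each member, EMD37 over vehicle, at 12 h (circles) and 24 h (squares), with 95% intervals from the edgeR fit; filled symbols have an adjusted p below 0.05. HSPA6, HSPA1A and HSPA1B lie between 3.32 and 5.45, HSPH1 at 0.82 and 1.26, and HSPA14 near 0.

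Whether the response differed between the times was tested as the 24 h effect minus the 12 h effect. It was positive and passed for 3 members and negative for 0, where 7.96% of all tested genes passed as positive and 7.94% as negative. By unadjusted p below 0.05 1 member, HSPA2, was negative (-1.09, edgeR adjusted p = 0.105), and DESeq2 called 0 negative. HSPA1B differed by 0.51 ± 0.12 (edgeR adjusted p = 0.0105), HSPH1 by 0.44 ± 0.13 (edgeR adjusted p = 0.0282) and HSPA4L by 0.41 ± 0.11 (edgeR adjusted p = 0.0159). These 3 differences are sensitive to the libraries. HSPA1B no longer passed without EMD37 12 h library B (edgeR adjusted p = 0.0559) or vehicle 12 h library A (0.0835). HSPH1 and HSPA4L no longer passed without EMD37 12 h library A or B, vehicle 12 h library A or EMD37 24 h library B, at edgeR adjusted p of 0.0789 to 0.157 for HSPH1 and 0.0524 to 0.0723 for HSPA4L. HSPA6 had the largest positive estimate, 0.62, without passing (95% interval 0.045 to 1.195, edgeR adjusted p = 0.137). HSPA1A was at 0.43 and did not pass (95% interval 0.10 to 0.77, edgeR adjusted p = 0.0763). With the reads of HSPA1A and HSPA1B summed, the difference was 0.50 ± 0.12 and passed (edgeR adjusted p = 0.0108).

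Changes over time were also read within each arm. In vehicle cells 4 members were lower at 24 h than at 12 h and 0 were higher, where 3.25% of all tested genes were lower and 2.75% higher. By unadjusted p below 0.05 and by DESeq2 0 members were higher as well, and DESeq2 called 3 lower. HSPA1B fell by 0.71 ± 0.09 (edgeR adjusted p = 0.000588), HSPA6 by 1.01 ± 0.25 (edgeR adjusted p = 0.0296), HSPA1A by 0.56 ± 0.13 (edgeR adjusted p = 0.0238) and HSPA8 by 0.44 ± 0.11 (edgeR adjusted p = 0.0351). Of these the HSPA1B fall passed whichever library was left out. The calls of HSPA1A, HSPA6 and HSPA8 were lost without vehicle 12 h library A or B (edgeR adjusted p = 0.0858 to 0.386), and some others ended them as well. The HSPA8 call was also lost with DESeq2 (adjusted p = 0.0902) and with the library letter as a replicate block (edgeR adjusted p = 0.0569). HSPH1 and HSPA4L were at -0.21 (95% interval -0.40 to -0.01) and -0.07 (-0.23 to 0.09) in vehicle cells, and neither passed. HSPA2 was at -0.79 in vehicle cells and did not pass either (95% interval -1.40 to -0.19, edgeR adjusted p = 0.107).

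EMD37 cells at 24 h were set against EMD37 cells at 12 h as a comparison added after the values were seen. Here 2 members were higher and 2 lower, where 15.5% of all tested genes were higher and 15.7% lower. HSPA4L rose by 0.34 ± 0.08 (edgeR adjusted p = 0.00247) and HSPA4 by 0.29 ± 0.09 (edgeR adjusted p = 0.0176). HSPA6 fell by 0.39 ± 0.10 (edgeR adjusted p = 0.00681) and HSPA2 by 1.88 ± 0.32 (edgeR adjusted p = 0.00028). HSPA1B was at -0.20 (95% interval -0.37 to -0.03) and HSPA1A at -0.13 (-0.31 to 0.05), neither passing. HSPA1B did pass with the letters of EMD37 24 h crossed in a replicate block (edgeR adjusted p = 0.0373). HSPH1 was at 0.23 (0.04 to 0.42, edgeR adjusted p = 0.0611). That value passed with no filter on low counts (edgeR adjusted p = 0.0316), with the 4 libraries alone (0.0154) and with the crossed block (0.0183). The HSPA4 call was lost without EMD37 12 h library A (edgeR adjusted p = 0.122) or B (0.0866) or EMD37 24 h library B (0.182), and the HSPA6 call without EMD37 12 h library B (0.127) or EMD37 24 h library A (0.0505) or B (0.0556).

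The treatment changed the make-up of the family as well as its size. The 9 genes together took 1.361% and 1.519% of counted reads with EMD37 and 1.146% and 1.016% with vehicle at 12 h. At 24 h they took 1.278% and 1.371% with EMD37 and 0.896% and 0.752% with vehicle. EMD37 libraries were above vehicle libraries at both times. On the scale of CPM per kilobase of exon, where genes can be compared, HSPA8 made up 74.3% to 77.71% of the family in the 4 EMD37 libraries and 90.64% to 92.44% in the 4 vehicle libraries. HSPA1A, HSPA1B and HSPA6 together made up 15.73% to 19.82% in EMD37 libraries and 1.81% to 2.56% in vehicle libraries. The HSP110 genes made up 4.51% to 6.17% with EMD37 and 4.72% to 6.27% with vehicle. These shares depend on the length assigned to each gene. With the longest coding transcript, a choice made after the values were seen, HSPA8 made up 83.78% to 86.25% with EMD37 and 93.81% to 95.06% with vehicle, and the inducible genes 8.83% to 11.34% with EMD37 and 0.95% to 1.34% with vehicle. In CPM, which is not corrected for length, the largest gain was still that of HSPA8, 2170 at 12 h and 3810 at 24 h. HSPA1B followed with 1000 and 904 and HSPH1 with 363 and 574. Of these gains, that of HSPA8 at 12 h did not pass the test. The order of gains depends on length. Per kilobase at 12 h HSPA1A was at 8.12 with vehicle and 111.6 with EMD37. HSPH1 was at 56.65 and 99.97, or at 91.56 and 161.6 with the longest coding transcript.

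**Figure D3:**
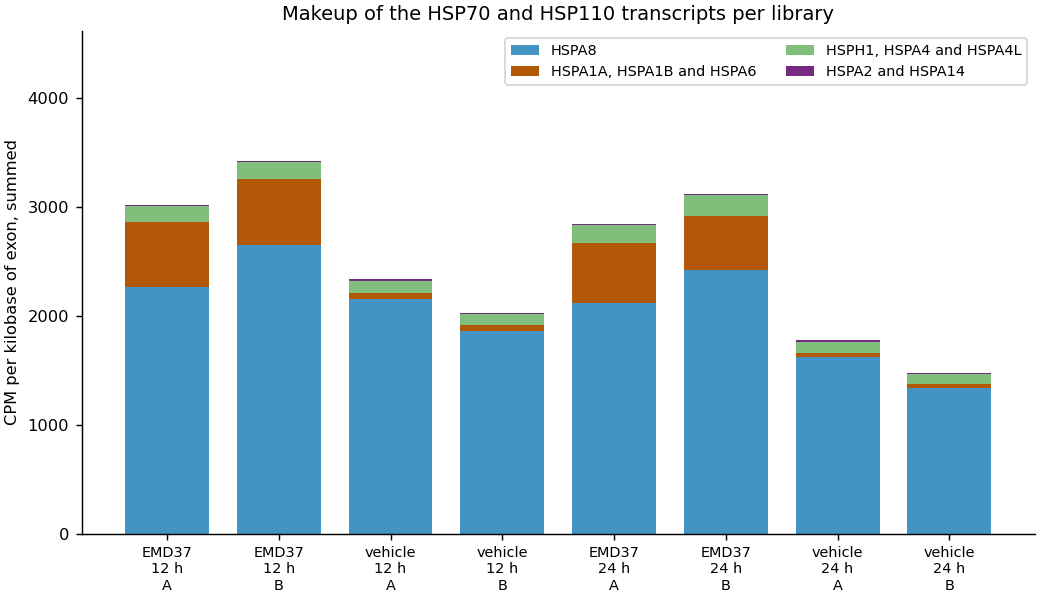
Stacked CPM per kilobase of exon in each of the 8 libraries, divided into HSPA8, the inducible HSPA1A, HSPA1B and HSPA6, the HSP110 genes HSPH1, HSPA4 and HSPA4L, and HSPA2 with HSPA14. The inducible layer is 15.73% to 19.82% of the bar in EMD37 libraries and 1.81% to 2.56% in vehicle libraries; with the longest coding transcript as length it would be 8.83% to 11.34% and 0.95% to 1.34%.

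The order of the levels per kilobase changed in step with this. In EMD37 cells at 12 h HSPA8 had 2459 ± 277 CPM per kilobase (SD, n = 2), followed by HSPA1B at 443 ± 2.51, HSPA1A at 112 ± 0.358, HSPH1 at 99.97 ± 3.92, HSPA6 at 44.8 ± 3.69 and HSPA4 at 41.8 ± 0.648. In vehicle cells at 12 h HSPA8 at 2010 ± 209 was followed by HSPH1 at 56.7 ± 4.06, HSPA1B at 44.3 ± 3.98 and HSPA4 at 40.6 ± 2.47, with HSPA1A at 8.12 ± 0.652 and HSPA6 at 1.55 ± 0.254. In EMD37 cells at 24 h HSPA1B at 386 ± 32.0 came after HSPA8, then HSPH1 at 117 ± 12.9 and HSPA1A at 102 ± 12.4. In vehicle cells at 24 h HSPH1 was at 49.1 ± 4.08, HSPA4 at 41.8 ± 4.29 and HSPA1B at 27.1 ± 1.43. Neighbours in this order whose libraries overlapped were HSPA6 with HSPA4 in EMD37 cells at 12 h, HSPH1 with HSPA1A in EMD37 cells at 24 h, HSPA4L with HSPA14 in EMD37 cells at both times, and HSPA1B with HSPA4 and HSPA4L with HSPA1A in vehicle cells at 12 h. The place of HSPH1 against HSPA1A at 12 h with EMD37 depends on the length used, since with the longest coding transcript HSPH1 was at 161.6 and HSPA1A at 111.6. HSPA4L and HSPA14 were between 7.77 and 11.5 in all 4 groups, and HSPA2 was below 1.

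The partners of HSP70 were read from lists of 18 J-domain proteins, 8 BAG and other exchange factors, 6 adaptors and 4 heat shock factors and their regulators, with 7 further HSP70 proteins, 43 genes in all. At 12 h 12 of the 43 were higher with EMD37 and 0 lower, where 5.27% of all tested genes were higher and 3.43% lower, with a median of 0.23, and DESeq2 also called 0 lower while 2 were lower by unadjusted p below 0.05. At 24 h 18 were higher and 3 lower, where 19.6% of all tested genes were higher and 21.1% lower, with a median of 0.27. With no filter on low counts 10 were higher and 0 lower at 12 h, and 17 and 3 at 24 h. With the 4 libraries of each time alone 17 were higher and 2 lower at 12 h, and 17 and 3 at 24 h. At 12 h fewer were higher on leaving out any 12 h library, and more without vehicle 24 h library A or B. At 24 h more were higher and more lower without vehicle 24 h library A. The J-domain proteins had 5 higher and 0 lower at 12 h and 7 higher and 2 lower at 24 h, with medians of 0.23 and 0.21, beside the same shares of all tested genes. At 12 h 4 of them were higher with no filter on low counts and 9 with the 4 libraries of 12 h alone. Fewer of them were higher at 12 h on leaving out any 12 h library, and more without vehicle 24 h library A or B.

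DNAJB1, the main stress-inducible J-domain partner of HSP70, had 1199 and 1269 CPM with EMD37 and 307.3 and 317.0 CPM with vehicle at 12 h. At 24 h the levels were 839.6 and 840.3 CPM with EMD37 and 253.4 and 250.7 CPM with vehicle. It rose by 1.98 ± 0.07 at 12 h (edgeR adjusted p = 1.33e-11) and 1.74 ± 0.07 at 24 h (edgeR adjusted p = 2.96e-11). Like HSPA6 it was lower in EMD37 cells at 24 h than at 12 h, by 0.56 ± 0.07 (edgeR adjusted p = 2.1e-05). In vehicle cells DNAJB1 was also lower at 24 h, by 0.31 ± 0.07 (edgeR adjusted p = 0.0242). The difference between effects of DNAJB1 was -0.25 and did not pass (edgeR adjusted p = 0.116). Its close relative DNAJB4 rose by 1.23 ± 0.08 at 12 h and by 2.02 ± 0.08 at 24 h (edgeR adjusted p = 2.08e-08 and 1.81e-11), the later effect being larger (difference 0.79, edgeR adjusted p = 0.000207). DNAJB2, which links HSP70 clients to degradation, rose by 1.18 ± 0.11 at 24 h (edgeR adjusted p = 2.71e-07) and was at 0.33 at 12 h (edgeR adjusted p = 0.0683).

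DNAJB5 moved in opposite directions at the 2 times. It had 33.3 and 38.9 CPM with EMD37 and 15.2 and 13.5 CPM with vehicle at 12 h. At 24 h it had 12.6 and 12.6 CPM with EMD37 and 18.6 and 18.0 CPM with vehicle. It rose by 1.33 ± 0.14 at 12 h (edgeR adjusted p = 4.96e-06), fell by 0.54 ± 0.15 at 24 h (edgeR adjusted p = 0.00781), and the difference of -1.87 passed as well (edgeR adjusted p = 1.33e-05). DNAJC9, a histone-binding J-domain protein, fell by 0.54 ± 0.11 at 24 h (edgeR adjusted p = 0.000742).

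Among the exchange factors other than HSP110, 0 of 8 passed edgeR's or DESeq2's test at 12 h. Of all tested genes, edgeR called 5.27% higher and 3.43% lower at that time. By unadjusted p below 0.05, 2 of the 8 were higher and 2 lower. Without vehicle 24 h library A or B, BAG6 was called higher and BAG2 and BAG4 lower at 12 h by edgeR. The medians of the 8 were 0.20 at 12 h and 0.13 at 24 h. By edgeR 2 of the 8 were higher and 1 lower at 24 h, where 19.6% of all tested genes were higher and 21.1% lower. At 24 h BAG1 rose by 0.65 ± 0.12 (edgeR adjusted p = 0.000495) and BAG6 by 0.52 ± 0.11 (edgeR adjusted p = 0.00104), while BAG2, which restrains the ligase that tags HSP70 clients, fell by 0.28 ± 0.07 (edgeR adjusted p = 0.00637). BAG3, named after its values were seen because it is a classical HSF1 target, had only 6 to 37 reads per library. Its differences of 0.84 at 12 h (95% interval 0.09 to 1.59, edgeR adjusted p = 0.17) and 1.05 at 24 h (0.10 to 2.00, edgeR adjusted p = 0.072) did not pass at this depth.

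Of the adaptors 3 of 6 were higher at 12 h and 4 of 6 at 24 h, where 5.27% and 19.6% of all tested genes were higher, with 0 lower by edgeR or DESeq2 and 1, TOMM34, lower at 24 h by unadjusted p below 0.05. The medians were 0.24 and 0.43. STIP1, which joins HSP70 to HSP90, rose by 0.41 ± 0.07 and 0.59 ± 0.07 (edgeR adjusted p = 0.00126 and 6.58e-06). CHORDC1, an HSP90 cochaperone, rose by 0.54 ± 0.07 and 0.81 ± 0.07 (edgeR adjusted p = 8.86e-05 and 2.15e-07). ST13, which steadies the ADP-bound form of HSP70, rose at 24 h by 0.86 ± 0.07 (edgeR adjusted p = 9.76e-08) and was at 0.19 at 12 h (edgeR adjusted p = 0.133). TOMM34 rose by 0.28 ± 0.08 at 12 h (edgeR adjusted p = 0.0355), a call lost without any of the 4 libraries of 12 h (edgeR adjusted p = 0.0527 to 0.358).

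The 4 heat shock factors and regulators had medians of 0.17 at 12 h and 0.23 at 24 h. HSF1 itself did not pass at either time. It had 28.47 and 28.17 CPM with EMD37 and 22.15 and 24.89 CPM with vehicle at 12 h. The 24 h levels were 42.87 and 31.47 CPM with EMD37 and 22.11 and 38.13 CPM with vehicle. Its libraries overlapped at 24 h, where both groups were widely spread. The differences were 0.27 (95% interval -0.16 to 0.69, edgeR adjusted p = 0.48) and 0.31 (-0.10 to 0.72, edgeR adjusted p = 0.224), and the 24 h estimate was -0.04 without vehicle library A and 0.75 without vehicle library B. HSF2 rose by 0.54 ± 0.10 at 24 h (edgeR adjusted p = 0.000297), and at 12 h its difference was 0.18 (edgeR adjusted p = 0.305).

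**Figure D4:**
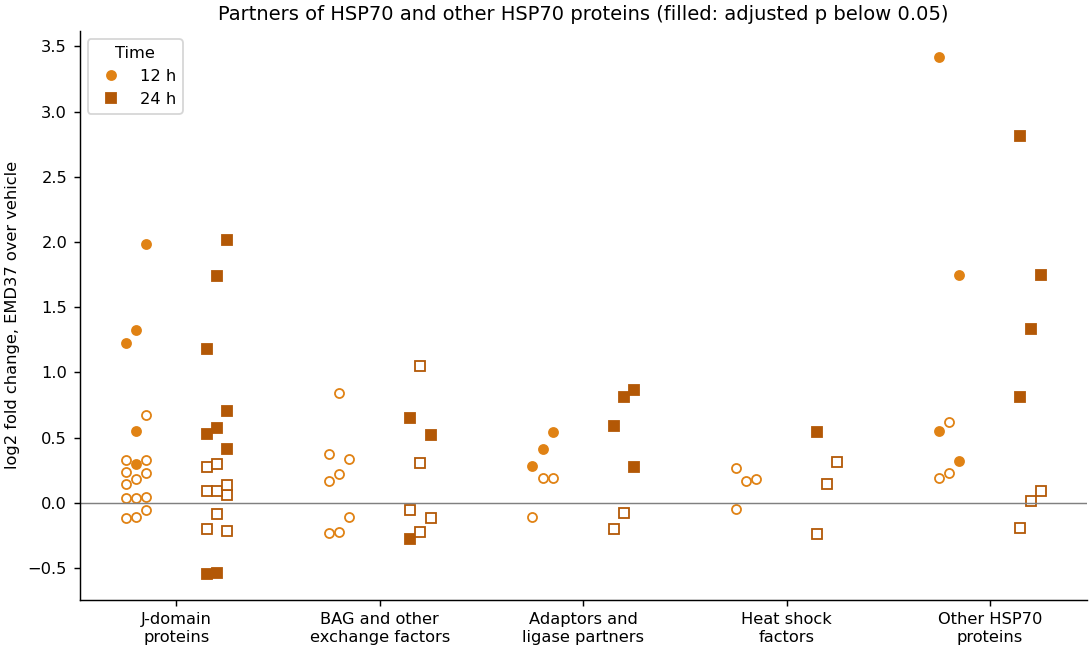
Log2 fold change, EMD37 over vehicle, of the genes of each partner list at 12 h and 24 h; each point is 1 gene and filled points have an edgeR adjusted p below 0.05. The ER protein HSPA5 lies highest at both times, at 3.42 and 2.81, and DNAJB5 changes side between 12 h and 24 h.

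Of the 7 further HSP70 proteins, 4 were higher at each time and 0 lower, by edgeR, by DESeq2 or by unadjusted p below 0.05 alike. Of all tested genes, edgeR called 5.27% higher and 3.43% lower at 12 h, and 19.6% higher and 21.1% lower at 24 h. The 4 belong to the ER, the secretory membranes or the mitochondria, and the other 3 were HSPA1L, HSPA12A and HSPA12B. HSPA1L and HSPA12B had at most 32 and 10 reads per library, too few to measure a modest change. The medians of the 7 were 0.55 and 0.81, beside -0.006 and -0.033 over all tested genes. HSPA5, the ER HSP70, had 3903 and 4520 CPM with EMD37 and 372 and 416 CPM with vehicle at 12 h. By 24 h it had 2343 and 2624 CPM with EMD37 and 365 and 342 CPM with vehicle. The EMD37 libraries stood apart from vehicle at both times and were lower at 24 h than at 12 h. Its 24 h effect was smaller than its 12 h effect by 0.61 ± 0.13 (edgeR adjusted p = 0.00522), the opposite sign to the 3 cytosolic members that differed between times. That positive sign was not particular to cytosolic genes. The difference between effects was 0.78 for HSPA13 (edgeR adjusted p = 0.000202) and 0.49 for HSPA9 (edgeR adjusted p = 0.00731). HYOU1 was at 0.005 and did not pass. Of the 7, 2 passed as positive and 1 as negative, where 7.96% and 7.94% of all tested genes did. Within EMD37 cells over time, HSPA5 was at -0.76, HSPA1B at -0.20, HSPH1 at 0.23 and HSPA4L at 0.34. HYOU1, the HSP110 relative of the ER, rose by 1.75 at both times (standard error 0.09, edgeR adjusted p = 6.83e-10 and 2.06e-10). HSPA13, a membrane-bound microsomal HSP70, rose by 0.55 ± 0.08 and 1.33 ± 0.08 (edgeR adjusted p = 0.000213 and 2.16e-09). HSPA9, the mitochondrial HSP70, rose by 0.32 ± 0.08 and 0.81 ± 0.08 (edgeR adjusted p = 0.0186 and 6.32e-07), the first of which was lost without any of the 4 libraries of 12 h (edgeR adjusted p = 0.0899 to 0.198).

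The genes most like a member were those with the smallest root mean square difference of log2(CPM + 0.5) over the 8 libraries after centring each gene. For HSPA1A they were HSPA1B at 0.222, the chemokine gene CXCL8 at 0.226, the prostaglandin synthase gene PTGS2 at 0.264 and the chemokine gene CXCL2 at 0.317, where the median over all tested genes was 2.01. For HSPA6 they were HSPA1A at 0.518, CXCL8 at 0.544, PTGS2 at 0.664 and HSPA1B at 0.694, with a median of 2.50. HSPH1 had other neighbours, SERP1 at 0.071, SELENOS at 0.094, HSP90AA2P at 0.094 and PDIA3 at 0.095, with a median of 0.591. SERP1, SELENOS and PDIA3 encode proteins of the ER, and HSP90AA2P is a pseudogene of a cytosolic HSP90 whose reads may come from its parent. HSPA8 was nearest to RPS27AP16 at 0.068, ARHGAP42 at 0.091, IARS at 0.096 and MTHFD1L at 0.101, with a median of 0.404. These distances describe 8 libraries in 4 groups and carry no test.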

How the data were processed

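Per the labels' protocols, libraries were made with a TruSeq kit from 1 µg of total RNA purified on Direct-zol columns. FastQC, STAR, DESeq2 and build hg38 were named in the submitters' processing notes; the sources used here do not give versions, strand setting or the handling of reads that map to several genes. All tests took the authors' deposited table of whole read counts. The second deposited table, of normalized signal, equals those reads over a size factor of each library, constant to a relative range of 9.7e-10. The normalized table listed 6912 IDs absent from the count table used here; their reads, recovered as whole numbers for 55296 of 55296 values within 0.01, were 8.26% to 11.66% of all reads and entered an alternative.

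Genes were named with GENCODE 29 on hg38, and exon lengths were the union of annotated exons. In edgeR 4.0.16 (R 4.3.3), 14850 genes passed filterByExpr at a minimum count of 10, TMM factors ran from 0.948 to 1.03, and a model with 1 mean per group over the 8 libraries gave a common dispersion of 0.00537 with 4 residual degrees of freedom. The tests were quasi-likelihood tests with Benjamini-Hochberg adjustment. They compared EMD37 with vehicle at each time, the 24 h with the 12 h effect, and vehicle at 24 h with vehicle at 12 h; EMD37 at 24 h against 12 h was added after the values were seen. The fit was checked on simulated counts. Alternatives were DESeq2 1.42.0, its size factors in edgeR, no filter, recovered reads added, HSPA1A and HSPA1B summed, the 4 libraries of a comparison alone, a replicate block and each library left out.

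The members and lists were chosen with earlier results of these data known. Named genes were all members, up to 4 genes of each list by smallest p, list genes called against most of their list, and the 4 genes nearest in pattern to HSPA1A, HSPA6, HSPH1 and HSPA8. Shared reads were gauged by 50-base stretches that occur in more than 1 gene of the annotation. Promoter windows and starts were RefSeq's, on GRCh38.p14.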

Additional observations from a re-analysis of the deposited data

Results flagged for a closer look

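In 3 members the effect of EMD37 differed between 12 h and 24 h by the edgeR test of the difference itself. HSPA1B had a difference of 0.508, with a rise of 3.83 at 24 h and 3.32 at 12 h. Over time it fell by 0.71 in vehicle cells, which passed, and was at -0.20 in EMD37 cells, which did not. HSPH1 had a difference of 0.439, with a rise of 1.26 at 24 h and 0.82 at 12 h. All 4 of its EMD37 libraries stood above all 4 vehicle libraries. Over time HSPH1 was at -0.21 in vehicle cells and at 0.23 in EMD37 cells, neither passing. HSPA4L had a difference of 0.407, with 0.56 at 24 h and 0.16 at 12 h. Over time it was at -0.07 in vehicle cells, not passing, and rose by 0.34 in EMD37 cells, which passed. Each difference between effects equals the change over time in EMD37 cells minus that in vehicle cells. The calls of the 3 differences were each lost when some single libraries were left out.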

How the results depend on the processing

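Over 1383 values of members and named partner genes under the alternatives, 1281 kept direction and side of the threshold, 43 newly passed, 46 no longer passed and 13 changed sign. The rises of HSPA1A, HSPA1B, HSPA6 and HSPH1 at both times and of HSPA8 and HSPA4L at 24 h passed under every alternative run. Depth limits HSPA2, BAG3, HSF4, HSPA1L and HSPA12B, which had under 50 reads per library. It also limits the vehicle level of HSPA6, at 15 to 48 reads, on which its folds and its fall in vehicle cells rest. Having 2 libraries a group limits every interval.

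The sign changes were all of values that did not pass. For HSPA14 at 24 h, reported as 0.001, the estimate was -0.00523 with no filter, -0.00119 with the replicate block, -1.79e-05 with that block crossed, and -0.152 to 0.135 with a library left out. Leaving out a library gave -0.0192 to 0.117 for HSPA4 at 12 h, -0.15 to 0.0696 for HSBP1 at 12 h, -0.0411 to 0.745 for HSF1 at 24 h and -0.721 to 0.142 for HSF4 at 24 h. It gave -0.00543 to 0.282 for the HSPA14 difference between effects, -0.0675 to 0.142 for HSPA4 in vehicle cells over time and -0.226 to 0.00402 for HSPA8 in EMD37 cells over time. The cause was not tested.

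Members called higher at 12 h stayed at 4 or 5 and at 24 h at 6 or 7 with any library left out. For the difference between effects 0 to 5 members were called higher. In vehicle cells over time 1 to 5 members were called lower, and 1 with the 4 libraries alone. In EMD37 cells over time 1 to 3 were called higher and 1 to 3 lower, and 4 higher with the 4 libraries alone. Over all tested genes the 12 h comparison called 782 higher and 510 lower, 385 to 1268 and 117 to 962 with a library left out, 1364 and 1109 with the 4 libraries alone, and 333 lower with DESeq2. The difference between effects called 1182 and 1179, with 695 to 1473 and 563 to 1784 on leaving out a library. Vehicle cells over time gave 408 and 482, with 30 to 1612 and 51 to 844 on leaving out a library, 55 and 86 with the 4 libraries alone, and 623 higher with no filter. EMD37 cells over time gave 2297 and 2327, with 1450 to 2859 and 1411 to 2856 on leaving out a library.

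The labels share letters between groups. Deviations of same-lettered libraries correlated at -0.04 between EMD37 and vehicle at 12 h, at -0.162 at 24 h, at 0.161 between vehicle at 24 h and at 12 h, and at 0.012 between EMD37 at 24 h and at 12 h, so the letter is not taken as a pairing. With the letter as a replicate block 705 and 392 genes were called at 12 h and 2858 and 3037 at 24 h, and the fall of HSPA8 in vehicle cells over time no longer passed (edgeR adjusted p = 0.0569). With the letters of EMD37 24 h crossed in that block, 1099 and 839 genes were called at 12 h and 1022 and 924 in vehicle cells over time.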
